A study of Mus musculus with 32 samples.

Results

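The comparison described here is the effect of the NASH-AA diet against the NASH diet in the liver of wild-type mice. Its members are the 8 libraries labelled WT and NASH-AA and the 8 labelled WT and NASH, 16 of the 32 in the series, taken by their labels. The other 16 come from mice with FAAH S268D, a changed form of the enzyme fatty acid amide hydrolase, on the same diets. They enter the fit and are set beside the wild-type values at the end. The tissue is whole liver, and the design text gives 28 weeks on a diet named HFFC, with or without ARA, in both genotypes. The labels say NASH and NASH-AA and do not spell these names out. They give neither sex, age nor strain, and whether each replicate is its own animal is not stated. The p-values therefore speak of the spread between libraries, which may be technical.

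Messenger RNA was sequenced from polyA-selected liver RNA, and each library gave estimated counts per gene. Total counts ran from 20653750 to 24872915 in WT NASH and from 20974701 to 34370032 in WT NASH-AA. Levels are CPM, the counts of a library scaled to a common total after TMM factors. Differences are log2 fold changes of NASH-AA over NASH, with the standard error after the ± sign. They are not scaled for gene length, so levels are compared between groups and not between genes. A gene passed the test, and is said to have risen or fallen, at a Benjamini-Hochberg adjusted p under 0.05 from limma-voom over 14902 genes. The 20 hepatocyte markers were all detected and summed to 78700 to 110000 CPM in NASH (median 92400) and 92700 to 119000 in NASH-AA (median 109000). The part of this sum in the hepatocyte genes below was not tested. Xist had 0 to 3 counts in the 16 libraries, and the Y-linked gene Ddx3y had 558 to 1200.

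**Figure D1:**
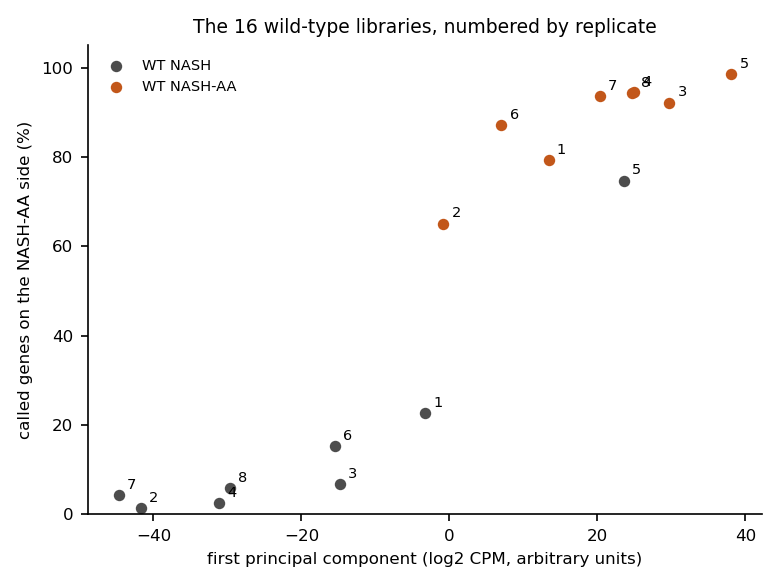
Each point is a wild-type library, numbered by replicate. The x axis is the first principal component of log2 CPM (22.3% of the variance, arbitrary units), and the y axis is the percentage of the 657 genes past the threshold whose level lay on the NASH-AA side of the midpoint between the group medians. NASH replicate 5 sits at 74.7%, among the NASH-AA libraries (65.1% to 98.6%). The other NASH libraries sit between 1.37% and 22.7%. The genes were called from these same libraries, so the parting of the diets on the y axis follows from their choice.

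WT NASH replicate 5 stood apart from its group in overall expression. On the first principal component it lay at 23.6, where the other 7 NASH libraries lay between -44.7 and -3.3 and the NASH-AA libraries between -0.8 and 38.1. Of the 657 genes that passed, 491 were on the NASH-AA side of the midpoint in this library. It was kept, since its label is the only statement of its diet. Whether its sample or label was exchanged was not tested, and an exchange would change the values of the comparison, so the count of each list described below with members past the threshold is given with and without it.

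Fatty acid amide hydrolase (FAAH) breaks down signalling lipids in which a fatty acid is joined to ethanolamine or to taurine. N-acyl taurines, such as arachidonoyl-taurine of the series title, are among its substrates in liver. Arachidonate itself is stored in membrane phospholipids and is the precursor of prostaglandins, thromboxanes and leukotrienes. Liver on a diet of the NASH type is known for fat-laden hepatocytes, recruited macrophages, activated stellate cells and expanding bile duct epithelium. In a whole-liver sample, fewer cells of a type and less RNA per cell cannot be told apart, which holds for every gene group below.

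Faah was present at like levels on both diets. It measured 133 to 188 CPM (median 151) in NASH and 140.1 to 166 CPM (median 157) in NASH-AA. The ranges overlapped almost fully, and the difference was 0.02 ± 0.06 (adjusted p = 0.838). Under scaling to total counts alone its sign turned, to -0.10.

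On the NASH-AA diet 215 genes rose and 442 fell, which is 4.41% of the genes tested (1.44% higher and 2.97% lower). The median log2 fold change was 0.45 among those that rose and -0.59 among those that fell, against 0.005 over all genes. At least a 2-fold change was seen for 25 of the genes that rose and 64 that fell. At an unadjusted p under 0.05 there were 3635 genes. Scaled to total counts alone, the split was 124 higher and 1559 lower with the median of all genes at -0.12. The 110 genes chosen for naming that passed kept their direction under each scaling.

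How many genes passed turned on single libraries. Leaving out each library in turn gave between 26 genes, without WT NASH replicate 2, and 2191, without WT NASH replicate 5, where all 657 still passed. Replicate 5 lay on the NASH-AA side for 491 of the 657, so leaving it out widens such differences by construction. Higher counts without it, here and in the lists below, are therefore no separate support. In all, 12 libraries, 11 of them wild type, moved the count by over 1.5 times. Those 26 genes passed in every one of the 32 fits and also with a term for the library number range (1 to 16 or 17 to 32), which the labels give without saying what it stands for. Leap2 and Rbm24 among them were chosen for naming after their values were seen. Of the named ones, Hsd11b1, Hgfac, Slc17a3, Extl1, Trappc13, Zfp35, Leap2 and Cyp2b9 rose. Cdh1, Tmem86a, B4galt5, Ccl9, Plxdc1, Mturn, Gramd1a, Gatm, Hunk and Rbm24 fell. For every other named gene that passed, the call was lost in at least 1 such fit, but all 178 genes chosen for naming kept their sign.

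The same holds for the gene lists below, whose counts are read against the share of all genes in the same fit. Without WT NASH replicate 5, 4.84% of all genes rose and 9.86% fell. With the range term 2.48% passed. At total-count scaling 124 of the 14902 genes rose and 1559 fell. Without WT NASH replicate 2, no member passed in 43 of the 47 lists, and 1 member did in each of the cytochrome, female-biased, periportal and cytokine lists. In each list that follows, "without replicate 5" means WT NASH replicate 5, and "1-library fits" are the 32 that left out a library in turn.

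Levels did not overlap between the diets for 42 genes, 0.282% of those tested, of which 15 were higher and 27 lower on NASH-AA, and 28 passed. Hsd11b1 (ENSMUSG00000016194), 11-beta-hydroxysteroid dehydrogenase, which regenerates active glucocorticoid from its inert form, was among them. It lies on chromosome 1, 193221634 to 193264075 (GRCm38). It ranged over 151 to 283 CPM (median 192) in NASH and 283 to 459.6 CPM (median 363) in NASH-AA, so the lowest NASH-AA library only just cleared the highest NASH library. It rose by 0.85 ± 0.16 (adjusted p = 0.0141). Hgfac, the protease that activates hepatocyte growth factor, measured 142 to 212 CPM (median 163) in NASH and 215 to 257 CPM (median 223) in NASH-AA and rose by 0.46 ± 0.09. B4galt5, a galactosyltransferase of glycolipid synthesis, measured 59.9 to 89.2 CPM (median 65.3) in NASH against 40.7 to 55.4 CPM (median 48.1) in NASH-AA, with every NASH-AA library below every NASH library. Its log2 fold change was -0.51 ± 0.10. Gramd1a, a carrier of cholesterol between membranes, was parted in the same way at a smaller difference (-0.32 ± 0.06). Hunk, a protein kinase, fell by 1.09 ± 0.22, from 4.78 to 9.37 CPM (median 6.35) to 1.76 to 4.25 CPM (median 3.10).

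Cytochrome P450 enzymes of foreign-compound and steroid metabolism were a group with many genes that rose. Of 31 such enzymes and their regulators, all tested, 8 rose and 1 fell (29% against 4.41% of all genes), with a median log2 fold change of 0.32. These were 13 and 1 without replicate 5 and 6 and 0 with the range term, and in 3 of the 1-library fits only 1 passed. The largest differences in this list belonged to Cyp2b13 and Cyp2b9, which lie close together on chromosome 7. Their stretches of 250 bases ahead of the RefSeq start are shown because the genes are near copies that moved together. Both read toward the start on the plus strand of GRCm38.p6, at chr7:26173159-26173408 for Cyp2b9 and chr7:26061245-26061494 for Cyp2b13, with the bases that differ in capitals.
Cyp2b9: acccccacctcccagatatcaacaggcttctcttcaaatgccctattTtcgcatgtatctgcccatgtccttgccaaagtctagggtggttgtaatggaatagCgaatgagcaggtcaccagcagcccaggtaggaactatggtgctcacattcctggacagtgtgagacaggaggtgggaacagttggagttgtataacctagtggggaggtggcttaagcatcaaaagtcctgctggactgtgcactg
Cyp2b13: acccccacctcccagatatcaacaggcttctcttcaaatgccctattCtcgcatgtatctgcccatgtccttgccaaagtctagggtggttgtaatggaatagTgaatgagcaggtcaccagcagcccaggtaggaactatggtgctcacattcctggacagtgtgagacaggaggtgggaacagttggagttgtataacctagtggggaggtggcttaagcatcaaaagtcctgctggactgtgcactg
They were the same at 248 of 250 positions (99.2%) and differed by T48C and C104T, with the base of Cyp2b9 first and positions counted from the 5′ end. AGGTCA, the half-site of many nuclear receptors, was searched on both strands and began at base 113 in both. It occurs in 14% of 32851 promoters of this table. TTCNNNGAA, the palindrome of STAT factors, was found in neither, and occurs in 7.0% of promoters.

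Cyp2b9 (ENSMUSG00000040660) measured 7.76 to 97.7 CPM (median 56.3) in NASH and 71.4 to 286 CPM (median 185) in NASH-AA. All but 1 NASH-AA library lay above every NASH library. The log2 fold change was 2.14 ± 0.46 (adjusted p = 0.0175). Cyp2b13 measured 0.325 to 16.9 CPM (median 2.42) in NASH and 5.18 to 28.2 CPM (median 16.2) in NASH-AA, a wide spread with overlap. It rose by 2.57 ± 0.74 (adjusted p = 0.0439), and the adjusted p was 0.0985 without WT NASH replicate 4. The wild-type libraries numbered 1 to 16 are 4 of NASH and 3 of NASH-AA, and those numbered 17 to 32 are 4 and 5. In libraries numbered 1 to 16 the values were 3.5 ± 0.51 for Cyp2b9 and 4.07 ± 0.71 for Cyp2b13. In libraries 17 to 32 they were 0.93 ± 0.46 and 1.23 ± 1.02, smaller but of the same sign. Of the 31-base words in their transcripts, 40.8% for Cyp2b13 and 26.1% for Cyp2b9 also occur in other genes, so their reads may have been divided between copies.

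Cyp2c enzymes oxidise drugs and fatty acids, arachidonate among them, and 3 of the 13 tested rose, where 1.44% of all genes did. Cyp2c29 ranged over 177 to 1112 CPM (median 418) in NASH and 627 to 1329.9 CPM (median 1015) in NASH-AA. The highest NASH value belonged to replicate 5, and the other 7 NASH libraries lay lower. Cyp2c29 rose by 1.16 ± 0.28, Cyp2c37 by 1.30 ± 0.34 and Cyp2c50 by 1.0 ± 0.25. These 3 genes passed in 27, 22 and 23 of the 1-library fits. Cyp1a2, which clears caffeine and oestrogens and is an aryl hydrocarbon receptor target, measured 139 to 299 CPM (median 207) in NASH and 256 to 574 CPM (median 404) in NASH-AA. It rose by 0.93 ± 0.22 (adjusted p = 0.021). Cyp2a5, the coumarin hydroxylase, rose by 0.88 ± 0.21 and Cyp2d22 by 0.31 ± 0.09. Cyp2d40, which is not in the list, rose by 0.85 ± 0.18. Cyp3a11, the main drug-oxidising enzyme of the Cyp3a family and a target of the pregnane X receptor, was the list member that fell. It measured 2115 to 4234 CPM (median 3212) in NASH and 1396 to 2893 CPM (median 1886) in NASH-AA, with overlap, for a log2 fold change of -0.72 ± 0.20 (adjusted p = 0.0423). Cyp2a5 shares 54.6%, Cyp2c37 47.4%, Cyp2c50 29.2% and Cyp2d40 27.6% of transcript words with other genes. Cyp2c37 and Cyp2c50 are each the closest gene of the other.

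**Figure D2:**
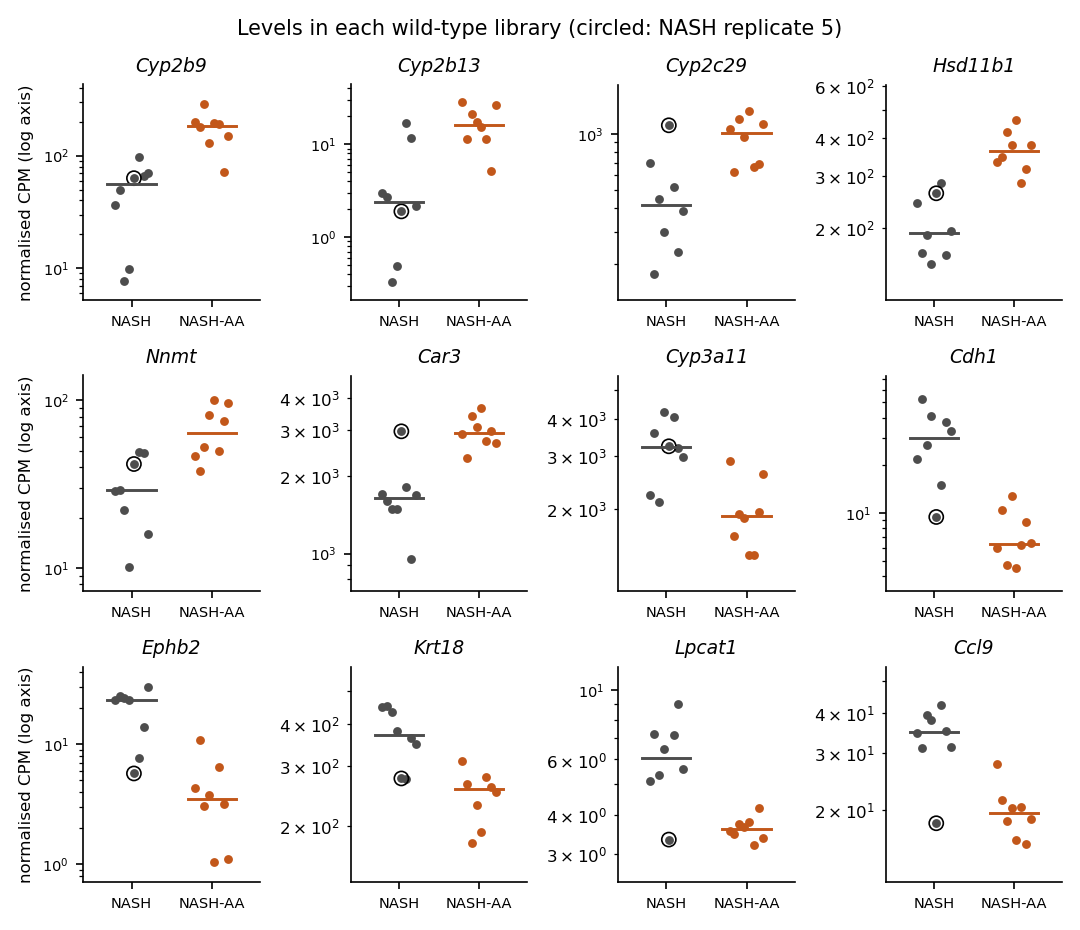
Normalised CPM (log axes) of 12 genes in each of the 16 wild-type libraries. Points are libraries, bars are group medians, and the circle marks NASH replicate 5. Cyp2b9, Cyp2c29, Hsd11b1, Nnmt and Car3 are among the higher genes and Cyp3a11, Cdh1, Ephb2, Krt18, Lpcat1 and Ccl9 the lower ones, with replicate 5 near the NASH-AA points in Cyp2c29, Car3, Cdh1, Lpcat1 and Ccl9.

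Receptors of growth hormone and prolactin rose. Ghr, the growth hormone receptor, measured 303 to 433 CPM (median 344) in NASH and 402 to 495 CPM (median 448) in NASH-AA and rose by 0.37 ± 0.08 (adjusted p = 0.0175). The diets overlapped at the edges of their ranges. Prlr, the prolactin receptor, rose by 0.91 ± 0.25, at 1.58 ± 0.36 in libraries 1 to 16 and 0.34 ± 0.29 in libraries 17 to 32. Of 18 genes of the growth hormone and IGF1 axis 2 rose and none fell (11.1% against 4.41%), at a median of 0.14, which ranged from 0.019 to 0.162 over the 1-library fits. There were 3 higher without replicate 5 and 1 with the range term. Igf1 was at 0.25 ± 0.12 and Igfbp2, a carrier of IGF1, at -0.76 ± 0.26, neither past the threshold.

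Among genes known to differ between the sexes of mice few passed, and the male-biased share was near that of all genes. Of 15 female-biased genes 2 rose (13.3% against 4.41%), Cyp2b9 and Cyp2b13, while 7 had negative values. The median was 0.29, ranged from 0.098 to 0.395 over the 1-library fits and was -0.17 in libraries 17 to 32. Without replicate 5 there were 2 as well, and in 13 of the 1-library fits 1. Of 18 male-biased genes 1 rose (5.56% against 4.41%), Susd4, a complement regulator, by 1.37 ± 0.31. The list median was 0.70, at 0.189 in libraries 1 to 16 and 1.204 in libraries 17 to 32. There were 5 higher and 1 lower without replicate 5, and none passed in 3 of the 1-library fits. The male-biased Cyp7b1, an oxysterol hydroxylase, was at 0.94 ± 0.30 (adjusted p = 0.0579). Mup3, a major urinary protein, ranged over 678 to 1878 CPM (median 1399) in NASH and 1915 to 3324 CPM (median 2343) in NASH-AA, without overlap, but its difference of 0.90 ± 0.30 missed the threshold (adjusted p = 0.0663). Mup20, of the same family, was at -0.63 ± 0.21. The female-biased Hao2, a hydroxy acid oxidase, was at 1.48 ± 0.57. Mup20 shares 64.5% and Mup3 30.1% of transcript words with other genes.

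Markers of hepatocytes, many of them plasma proteins, had positive values of small size. Of 20 hepatocyte markers 4 rose and none fell (20% against 4.41%), 19 had a positive value, and the median was 0.25. Ttr, the carrier of thyroid hormone and retinol-binding protein, measured 3135 to 5344 CPM (median 4401) in NASH and 4932 to 6816 CPM (median 5812) in NASH-AA, and rose by 0.45 ± 0.10. Tdo2, the first enzyme of tryptophan breakdown, and F2, prothrombin, rose by 0.37 ± 0.10 and 0.24 ± 0.07. There were 8 markers higher without replicate 5, 2 with the range term and none in 2 of the 1-library fits. At total-count scaling the median was 0.13, and 2 markers rose.

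Of 25 acute-phase proteins 3 rose and none fell (12% against 4.41%), with a median of 0.30. There were 5 higher without replicate 5 and 1 with the range term. Saa4, the constitutive serum amyloid A, measured 161 to 336 CPM (median 225) in NASH and 266 to 764 CPM (median 442) in NASH-AA and rose by 0.93 ± 0.24 (adjusted p = 0.033). Saa3, an inducible form, rose by 1.02 ± 0.29, and Itih4, an inhibitor chain, by 0.59 ± 0.17. Of 26 complement and coagulation genes 2 rose (7.69% against 4.41%), Cfi, the protease that inactivates C3b, by 0.32 ± 0.07 and Masp2, of the lectin pathway, by 0.27 ± 0.08. Among the genes of highest level past the threshold, Serpina1c, an antitrypsin, rose by 0.79 ± 0.22 and Ambp, the precursor of bikunin, by 0.29 ± 0.08. Serpina1c shares 82.2% of its transcript words with other genes. Exons of Masp2 and Serpina1c overlap exons on the opposite strand over 54.9% and 31.5% of their length. No acute-phase protein passed in 8 of the 1-library fits and no complement or coagulation gene in 3, and without replicate 5 the latter had 4 higher.

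**Figure D3:**
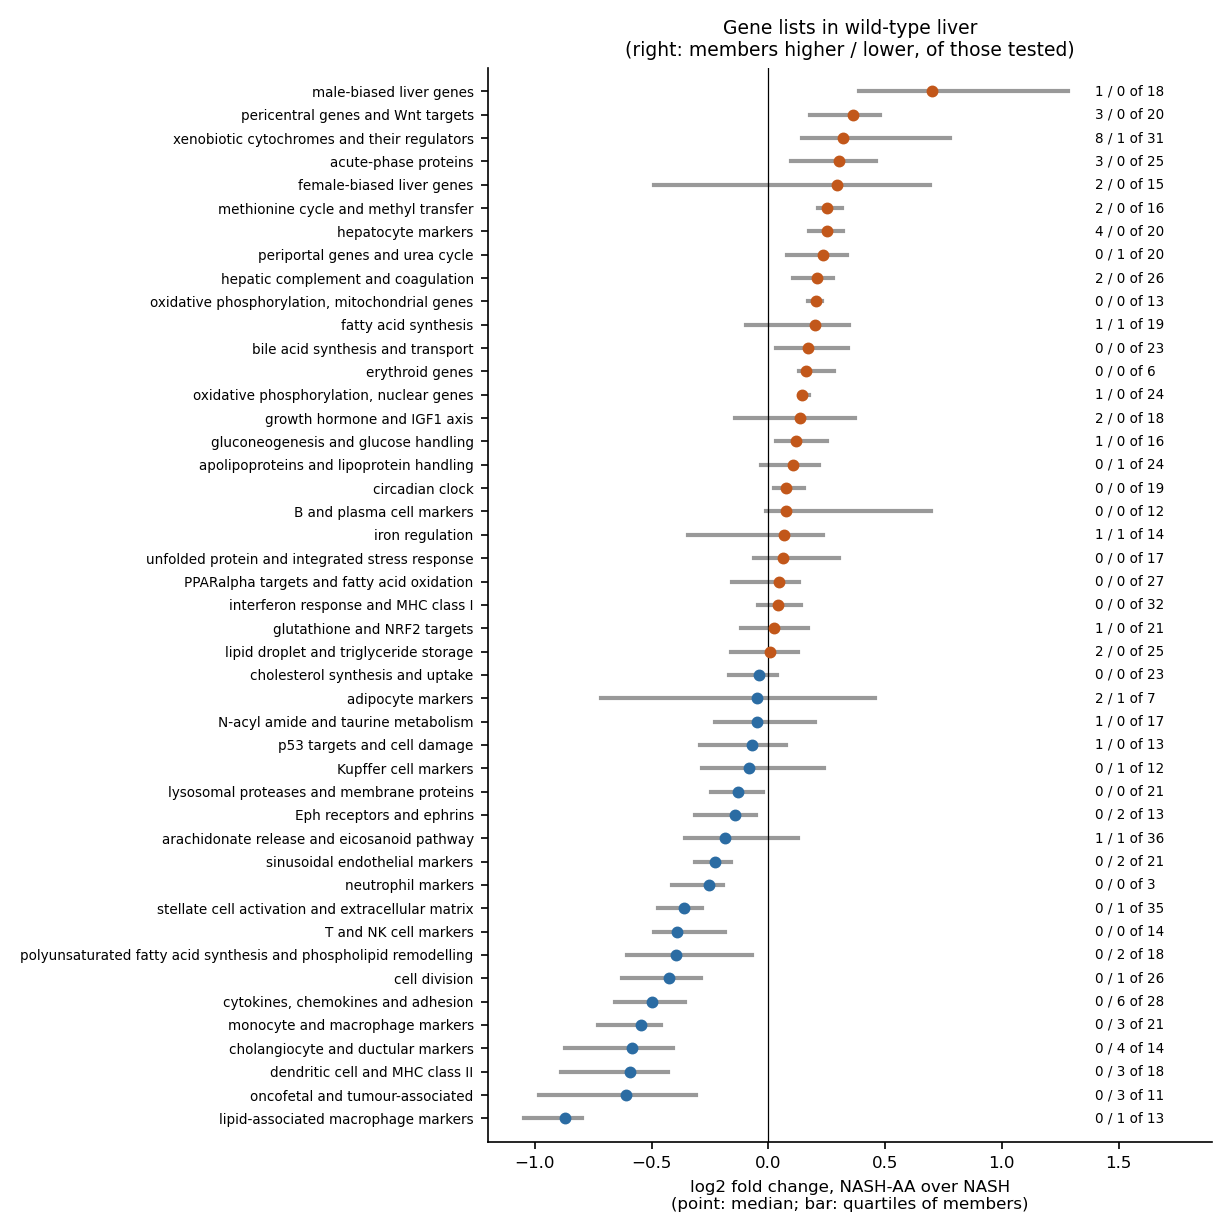
For each list of genes the point is the median log2 fold change of NASH-AA over NASH among the members tested and the bar spans their quartiles. Figures at the right count members that rose and fell. Cytochromes, liver-secreted proteins and zonated enzymes lie to the right of 0, and macrophage, dendritic, ductular and cytokine genes to the left.

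Slc17a3, Extl1 and Trappc13 were 3 further genes that rose whichever library was left out. Slc17a3, a urate and phosphate transporter, measured 27.6 to 41.2 CPM (median 34.0) in NASH and 39.0 to 62.4 CPM (median 48.4) in NASH-AA, and rose by 0.56 ± 0.12 (adjusted p = 0.0175). The diets overlapped at the edges of their ranges. Extl1, a glycosyltransferase of heparan sulfate, rose by 0.81 ± 0.15, and Trappc13, of a vesicle tethering complex, by 0.28 ± 0.05.

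Car3, carbonic anhydrase 3, ranged over 954 to 2963 CPM (median 1640.2) in NASH and 2343 to 3641 CPM (median 2930.2) in NASH-AA, where the highest NASH value was that of replicate 5. It rose by 0.84 ± 0.18 (adjusted p = 0.0175). Aldh2, the mitochondrial aldehyde dehydrogenase, rose by 0.24 ± 0.07, Khk, ketohexokinase, which starts fructose breakdown, by 0.45 ± 0.12, and Slc37a4, the glucose 6-phosphate transporter, by 0.44 ± 0.13. Nnmt, which methylates nicotinamide, ranged over 10.2 to 49.4 CPM (median 29) in NASH and 37.7 to 100.2 CPM (median 64.2) in NASH-AA. Nnmt rose by 1.23 ± 0.35 and Shmt1, of one-carbon metabolism, by 0.41 ± 0.11, and these 2 of 16 methionine and methyl-transfer genes passed (12.5% against 4.41%), with a list median of 0.25. There were 3 without replicate 5, and none with the range term or in 10 of the 1-library fits. Of 20 pericentral genes 3 rose (15% against 4.41%), Cyp1a2, Gulo and Slc1a2, with a median of 0.36. There were 10 higher without replicate 5, 1 at total-count scaling and none in 3 of the 1-library fits. Of 20 periportal genes 1 fell (5% against 4.41%), Cdh1, while the median was 0.23, and 4 rose and 1 fell without replicate 5.

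Genes of respiration had small positive values. All 24 nuclear genes of oxidative phosphorylation had positive values with a median of 0.15. Of these genes 1 rose (4.17% against 4.41%), Ndufb3, a subunit of complex I, by 0.32 ± 0.08. The 13 mitochondrial genes were all positive too, with a median of 0.21, and none passed. At total-count scaling, which moves the median of all genes by -0.12, these medians were 0.02 and 0.08. Without replicate 5 there were 5 nuclear and 2 mitochondrial genes higher, and in 11 of the 1-library fits no nuclear gene passed. Of 14 iron genes 1 rose and 1 fell (14.3% against 4.41%), with 4 and 3 without replicate 5, and none with the range term or in 10 of the 1-library fits. Tfrc, the transferrin receptor, measured 8.57 to 15.8 CPM (median 14.4) in NASH and 12.8 to 30.4 CPM (median 22.4) in NASH-AA and rose by 0.62 ± 0.18, and Id1, a target of BMP signals, fell by 0.94 ± 0.26. In the glutathione list of 21 genes Gsta3 alone passed (4.76% against 4.41%), and rose by 0.47 ± 0.13, while 1 rose and 1 fell without replicate 5 and none passed with the range term. None of 19 clock genes or 17 genes of the unfolded protein response passed.

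Arachidonate handling is the pathway nearest to the series title, and few of its genes passed. Of 36 genes of arachidonate release and eicosanoid synthesis 1 rose and 1 fell (5.56% against 4.41%), with a median of -0.18. Cyp2j5, an epoxygenase of arachidonate, measured 263 to 442 CPM (median 306) in NASH and 366 to 457 CPM (median 416) in NASH-AA and rose by 0.38 ± 0.10 (adjusted p = 0.0327). Tbxas1, thromboxane synthase, measured 4.41 to 13.8 CPM (median 8.53) in NASH and 3.42 to 8.01 CPM (median 5.33) in NASH-AA, with wide overlap, and fell by 0.69 ± 0.20 (adjusted p = 0.0476). Pla2g4a, the phospholipase that frees arachidonate, was at -0.58 ± 0.18, and Hpgds, prostaglandin D synthase of blood cells, at -0.85 ± 0.29, both short of the threshold. The counts were 4 higher and 7 lower without replicate 5, and in 9 of the 1-library fits none passed.

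Of 18 genes that make polyunsaturated fatty acids or remodel phospholipids 2 fell (11.1% against 4.41%) and the median was -0.40. The count was 6 without replicate 5, 7 at total-count scaling and 1 with the range term. Lpcat1, which attaches acyl chains to lysophosphatidylcholine, measured 3.34 to 9.01 CPM (median 6.05) in NASH and 3.21 to 4.19 CPM (median 3.61) in NASH-AA and fell by 0.72 ± 0.16 (adjusted p = 0.0175). Replicate 5 was the lowest NASH library and the only one within the NASH-AA range. Mboat1, a lysophospholipid acyltransferase, fell by 1.24 ± 0.37 at less than 1 CPM. Elovl2, which elongates arachidonate and other long polyunsaturated acids, was at -0.51 ± 0.16 (adjusted p = 0.0577). Outside the list, Tmem86a, which cleaves lysoplasmalogens, measured 21.1 to 41.5 CPM (median 33.5) in NASH and 10.8 to 22.7 CPM (median 17.6) in NASH-AA and fell by 0.99 ± 0.18 (adjusted p = 0.0134). Elovl7, a fatty acid elongase, fell by 1.80 ± 0.47.

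Enzymes that act on N-acyl amides and taurine held a single gene that passed. Of 17 members 1 rose (5.88% against 4.41%) and the median was -0.05. The member was Pm20d1, a secreted enzyme that makes and breaks N-acyl amino acids. It measured 80.3 to 140.5 CPM (median 101) in NASH and 116 to 136 CPM (median 126) in NASH-AA and rose by 0.34 ± 0.09 (adjusted p = 0.0327), but in 10 of the 1-library fits no member passed. Without replicate 5, 2 members rose and 1 fell. Acnat2, an acyltransferase of the family that makes N-acyl taurines, was at 0.56 ± 0.18 and Napepld, which releases N-acyl ethanolamines, at -0.47 ± 0.20, and neither passed. Acnat2 shares 37.1% of its transcript words with another gene.

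Neutral lipid genes were split. Dgat2, which completes triglyceride synthesis, measured 353 to 522 CPM (median 401) in NASH and 479 to 586 CPM (median 525) in NASH-AA and rose by 0.33 ± 0.09. Bscl2, seipin, which shapes lipid droplets, rose by 0.25 ± 0.07, and these were the 2 of 25 droplet genes that passed (8% against 4.41%), at a median of 0.005. Without replicate 5 there were 2 as well, at total-count scaling 1 fell, and in 10 of the 1-library fits none passed. Cidea, a droplet protein of steatotic liver, was at -1.31 ± 0.69 and did not pass. In the list of 19 fatty acid synthesis genes Khk rose and Scd2, a desaturase, fell by 0.76 ± 0.21 (10.5% against 4.41%), with 2 higher and 1 lower without replicate 5 and none in 6 of the 1-library fits. Pltp, which moves phospholipid between lipoproteins, measured 89.3 to 149 CPM (median 113) in NASH and 48.5 to 107 CPM (median 75.9) in NASH-AA and fell by 0.61 ± 0.15, the 1 of 24 apolipoprotein and lipoprotein genes to pass (4.17% against 4.41%), at a median of 0.11. Without replicate 5 there were 2 higher and 2 lower, and none in 5 of the 1-library fits. Apoa4 was at -1.25 ± 0.39 (adjusted p = 0.0543), and its exons overlap exons on the opposite strand over 69.8% of their length. None of 23 cholesterol synthesis and uptake genes, 27 PPAR-alpha and fatty acid oxidation genes or 23 bile acid genes passed, with medians of -0.04, 0.04 and 0.17. At total-count scaling the droplet, lipoprotein and fatty acid oxidation medians were -0.117, -0.015 and -0.083. Sqle, squalene epoxidase, was at -1.29 ± 0.55 and Fgf21 at -0.78 ± 0.34.

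Chemokines and inflammatory mediators were among the genes that fell on NASH-AA. Of 28 cytokines, chemokines and adhesion genes 6 fell and none rose (21.4% against 4.41%), with a median of -0.50. Ccl9, a macrophage chemokine, measured 18.2 to 42.3 CPM (median 34.9) in NASH and 15.6 to 27.7 CPM (median 19.5) in NASH-AA. Replicate 5 was the lowest NASH library, and the other 7 lay above every NASH-AA library. Ccl9 fell by 0.75 ± 0.14 (adjusted p = 0.0171). Il1a, interleukin 1 alpha, fell by 0.59 ± 0.13, Cxcl16, a ligand for T cells and a scavenger receptor, by 0.64 ± 0.15, Tgfb1 by 0.51 ± 0.13, Ccl3 by 0.95 ± 0.27 and Casp1, the protease that matures interleukin 1 beta, by 0.43 ± 0.12. There were 15 lower without replicate 5, 4 with the range term and 1 without WT NASH replicate 2. The part of macrophage RNA, described next, in these values was not tested. None of 32 interferon response genes passed, with a median of 0.04, or -0.08 at total-count scaling.

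Macrophage markers had lower values on NASH-AA, but few passed singly. Of 21 monocyte and macrophage markers all had negative values with a median of -0.54, and 3 fell (14.3% against 4.41%). Their summed level ran from 656 to 1790 CPM in NASH (median 1300) and from 742 to 1020 in NASH-AA (median 875), with no marker at 0 in either group. Itgam, the integrin CD11b, fell by 0.97 ± 0.27, Cd14, the lipopolysaccharide co-receptor, by 0.91 ± 0.26 and Aif1 by 0.58 ± 0.16. Lyz2, lysozyme, measured 91.7 to 331 CPM (median 214) in NASH and 99.2 to 157 CPM (median 126) in NASH-AA, and at -0.68 ± 0.22 it did not pass (adjusted p = 0.059). There were 18 lower without replicate 5, where 9.86% of all genes fell, and 10 at total-count scaling. None passed with the range term, at a median of -0.53, or in 7 of the 1-library fits. Itgam shares 68.1% and Lyz2 32.8% of transcript words with other gene models.

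Markers of lipid-associated macrophages, which gather around dying fat-laden cells, had the lowest median of the lists in the plot of gene lists. It was -0.87 over 13 genes, all negative, and 1 fell (7.69% against 4.41%), the tetraspanin Cd9, by 0.63 ± 0.19. Cd63, another tetraspanin, measured 8.77 to 57.2 CPM (median 31.9) in NASH and 7.59 to 19.4 CPM (median 15.6) in NASH-AA. Replicate 5 held the lowest NASH value, well inside the NASH-AA range. Its difference of -1.16 ± 0.38 did not pass (adjusted p = 0.0634). Spp1, osteopontin, was at -1.04 ± 0.36, Itgax, CD11c, at -1.05 ± 0.36 and Fabp5 at -0.80 ± 0.24. There were 11 lower without replicate 5, 9 at total-count scaling, and none with the range term or in 21 of the 1-library fits. Resident Kupffer cell markers had a median of -0.08 over 12 genes, from -0.21 to 0.01 over the 1-library fits, with values of both signs. Among them 1 fell (8.33% against 4.41%), the regulator Id3, by 0.55 ± 0.17, with 3 without replicate 5 and none with the range term. Marco, a scavenger receptor, was at 1.2 ± 0.73 and Cd163 at 1.66 ± 0.61.

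Dendritic cell and MHC class II genes had a negative median as well, -0.59 over 18 genes, of which 3 fell and none rose (16.7% against 4.41%). Their summed level ran from 344 to 1320 CPM in NASH (median 942) and from 338 to 646 in NASH-AA (median 445). Cd209a, a lectin of monocyte-derived dendritic cells, ranged over 0.271 to 0.910 CPM (median 0.442) in NASH and 0.0948 to 0.238 CPM (median 0.214) in NASH-AA without overlap, at less than 1 CPM in each library, and fell by 1.22 ± 0.36. Clec9a, of cross-presenting dendritic cells, fell by 0.44 ± 0.12, and Batf3, their transcription factor, by 0.64 ± 0.19. Ciita, the master regulator of MHC class II, was at -0.90 ± 0.31 (adjusted p = 0.0737). Outside the list, Cd207, langerin, measured 2.02 to 17.4 CPM (median 13.8) in NASH and 1.66 to 9.82 CPM (median 3.69) in NASH-AA. Cd207 fell by 1.5 ± 0.40. Of the 18 list members, 12 were lower without replicate 5. At total-count scaling 11 were lower, where 1559 of all 14902 genes fell. None passed with the range term, at a median of -0.54, or in 9 of the 1-library fits. None of 14 T and NK cell, 12 B cell and plasma cell or 3 neutrophil markers tested passed.

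Cdh1 and Ephb2 were among the genes with large drops. Cdh1 (ENSMUSG00000000303), E-cadherin, which joins epithelial cells and in liver is richest in ducts and periportal hepatocytes, measured 9.43 to 52.4 CPM (median 29.9) in NASH and 4.51 to 12.7 CPM (median 6.36) in NASH-AA. Only the lowest NASH library, replicate 5, lay within the NASH-AA range. Cdh1 fell by 1.89 ± 0.39 (adjusted p = 0.0175). Ephb2, a receptor tyrosine kinase for ephrins, measured 5.72 to 30.2 CPM (median 23.6) in NASH and 1.04 to 10.9 CPM (median 3.48) in NASH-AA and fell by 2.37 ± 0.70 (adjusted p = 0.0476). Its ligand Efnb1 fell by 0.24 ± 0.07, and these were the 2 of 13 Eph receptors and ephrins that passed (15.4% against 4.41%), at a median of -0.14. There were 3 lower without replicate 5, and none with the range term or in 15 of the 1-library fits. The adjusted p of Ephb2 was 0.102 without WT NASH-AA replicate 5.

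Of 11 oncofetal and tumour-associated genes 3 fell (27.3% against 4.41%), at a median of -0.61. There were 5 lower without replicate 5, and none with the range term or in 10 of the 1-library fits. H19, a long RNA of fetal liver, ranged over 0.494 to 8.12 CPM (median 4.47) in NASH and 0.307 to 1.2 CPM (median 0.593) in NASH-AA and fell by 2.36 ± 0.66. Akr1b8, an aldo-keto reductase, fell by 0.61 ± 0.17, and the third was the desaturase Scd2 named above. Of 14 cholangiocyte and ductular markers 4 fell (28.6% against 4.41%) at a median of -0.58, among them the tetraspanin Tspan8 by 1.51 ± 0.40, the transcription factor Sox4 by 0.90 ± 0.26 and Cldn4, a tight-junction protein, by 1.51 ± 0.45. Their summed level ran from 778 to 1190 CPM in NASH and from 525 to 874 in NASH-AA. The fourth, Krt18, a keratin that hepatocytes share with duct cells, measured 275 to 451 CPM (median 372) in NASH and 179 to 310.4 CPM (median 257) in NASH-AA and fell by 0.59 ± 0.17. Epcam, a defining marker of duct cells, was at -0.94 ± 0.35 (adjusted p = 0.101). Exons of Sox4 overlap exons on the opposite strand over 54.6% of their length. Of the 14, 8 fell without replicate 5, 1 with the range term and none in 7 of the 1-library fits.

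Further large drops were those of Cib3, Shc2 and Aqp7. Cib3, a calcium-binding protein, ranged over 0.865 to 17.9 CPM (median 9.21) in NASH and 0.132 to 2.03 CPM (median 0.879) in NASH-AA and fell by 3.10 ± 0.73 (adjusted p = 0.022). Shc2, a signalling adaptor, fell by 2.65 ± 0.77. Aqp7, a glycerol channel, measured 0.330 to 3.49 CPM (median 2.57) in NASH and 0.0766 to 0.996 CPM (median 0.202) in NASH-AA and fell by 2.64 ± 0.75. In each of these 3 genes the NASH library of lowest level lay inside the NASH-AA range. Sema3b, a semaphorin, fell by 1.85 ± 0.44, Nrg1, a ligand of ErbB receptors, by 1.83 ± 0.52, Fam83a by 1.71 ± 0.44 and Prss8, an epithelial serine protease, by 1.6 ± 0.34. Smaller drops that passed whichever library was left out were those of Gatm, the enzyme that starts creatine synthesis, at -0.66 ± 0.13, Mturn at -0.69 ± 0.14 and Plxdc1 at -0.94 ± 0.18.

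Lists of endothelial, stellate and dividing cells held few genes past the threshold. Of 21 sinusoidal endothelial markers 2 fell, Flt4, the receptor of VEGF-C, by 0.47 ± 0.14 and Stab1, a scavenger receptor, by 0.42 ± 0.12, with a median of -0.23. All 35 genes of stellate activation and extracellular matrix had negative values with a median of -0.36, and 1 fell, the protease Mmp14, which measured 30.9 to 62.1 CPM (median 49.3) in NASH and 23.3 to 45.0 CPM (median 34.4) in NASH-AA, by 0.51 ± 0.15. Of 26 cell division genes 1 fell, the checkpoint kinase Bub1, by 1.19 ± 0.34, with a median of -0.43. Their shares were 9.52%, 2.86% and 3.85%, against 4.41% of all genes. The counts were 8, 5 and 8 lower without replicate 5. None passed in these lists with the range term, nor in 21, 22 and 12 of the 1-library fits.

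Markers of tissue that a liver piece could carry along were also counted. Of 7 adipocyte markers tested 2 rose and 1 fell (42.9% against 4.41%), with 2 and 2 without replicate 5 and 2 and 0 with the range term. The median of the 7 was -0.047, with 3 positive and 4 negative values. The sum of 12 in the table was 1130 to 3150 CPM in NASH and 2430 to 3750 in NASH-AA. Car3 alone made up most of it, at 954 to 2963 and 2343 to 3641 CPM. The risers were Cfd, adipsin, which ranged over 2.30 to 28.9 CPM (median 5.80) in NASH and 7.72 to 49.5 CPM (median 30.4) in NASH-AA and rose by 1.99 ± 0.52, and Car3, above. Aqp7 was the member that fell. Of pancreas markers the sum was 6.98 to 10.4 CPM in NASH and 8.18 to 13.4 in NASH-AA, and of skeletal muscle markers at most 0.95 and 0.524. Only 1 of 11 pancreas markers and 1 of 8 muscle markers had enough counts to be tested, and neither passed. None of 6 erythroid genes passed. The part of other tissue in the adipocyte values was not tested.

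**Figure D4:**
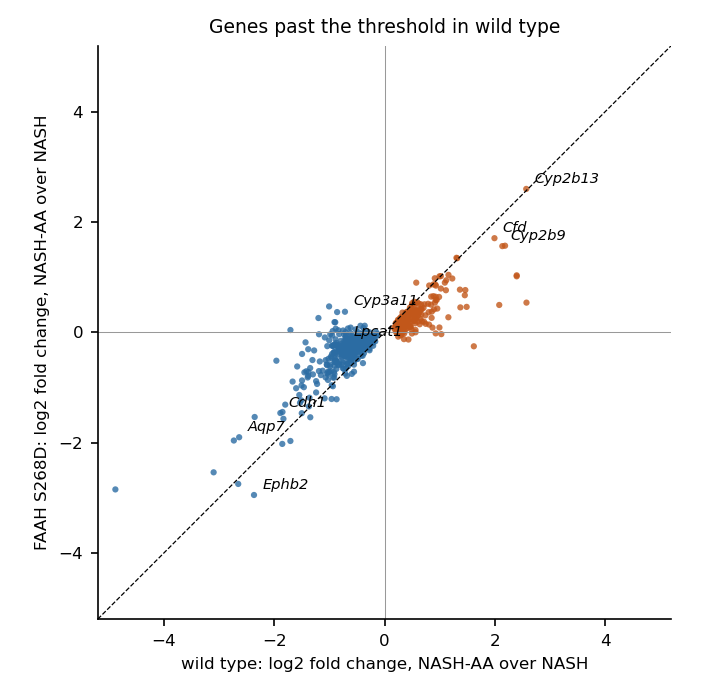
The 657 genes past the threshold in wild type, with the wild-type log2 fold change of NASH-AA over NASH on the x axis and that in FAAH S268D on the y axis. Orange genes rose and blue genes fell in wild type, and the dashed line marks equal values. Most points lie in the quadrants of shared sign, at smaller size in FAAH S268D, and Cyp3a11 lies in another quadrant.

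The 16 FAAH S268D libraries share no sample with the wild-type comparison. Their total counts ran from 3851404 to 26662523 on NASH and from 14743016 to 30884863 on NASH-AA. In them 14 genes passed for diet in limma-voom (0.0939%), and 1843 had an unadjusted p under 0.05. The part of depth in this count was not tested. Of the genes called in wild type, 202 of 215 that rose and 420 of 442 that fell had the same sign in FAAH S268D. Over all genes 5227 of 7614 positive and 4884 of 7288 negative values kept their sign. The medians of the called genes were 0.22 and -0.25 in FAAH S268D, against 0.45 and -0.59 in wild type, the genotype in which they were chosen. The interaction of diet and genotype passed for 0 genes in limma-voom, with 628 at an unadjusted p under 0.05, so no wild-type effect was shown to differ from that in FAAH S268D. Cyp2b13 was at 2.60 ± 0.68 in FAAH S268D, Cyp2b9 at 1.56 ± 0.47, Cyp2c29 at 1.04 ± 0.29 and Ephb2 at -2.95 ± 1.07. Values closer to 0 were seen for Lpcat1 (-0.18 ± 0.18), Extl1 (0.14 ± 0.14) and Plxdc1 (0.02 ± 0.21). Cyp3a11 had opposite signs, -0.72 ± 0.20 in wild type and 0.37 ± 0.20 in FAAH S268D, with an unadjusted interaction p of 0.00057 and an adjusted p of 0.906.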

How the data were processed

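The file deposited by the authors is a single table that holds an estimated count for each gene in 32 whole-liver libraries, unscaled, and 0 of its columns were left unused. TRIzol served for RNA extraction and a Tecan Universal Plus kit for the polyA libraries, per the labels' protocols. The submitters' processing notes name STAR 2.7.10 and the build GRCm38, with Trim Galore 0.6.7 for trimming and UMI-tools 1.1.2. Not given in the sources used here are the counter, the annotation it used and whether it used strand, so reads of near copies and of overlapping genes may have been divided or joined.

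A spreadsheet had altered part of the table's text. Of 1775584 deposited count cells, 87.858% were plain whole numbers, 11.404% carried digit-grouping marks, and others were clock times, day fractions or decimals. These were turned back by fixed rules, and for 0.2699% of cells with 2 possible originals the one nearer to the gene's depth-scaled median was taken. Values were rounded to whole counts. Since the cells as deposited are not plain numbers, their unit was recorded as "other" and no count model of another tool was run.

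The test was limma-voom (limma 3.58.1, R 4.3.3), with a mean per group over all 32 libraries, TMM factors (trims of 30% and 5%) and a prior count of 0.5. A gene was tested if 8 or more libraries reached the CPM that 10 counts give at median depth and its total was 15 or more, which left 14902. On data simulated with these library sizes, the fit recovered 93 of the 100 genes set to change 2-fold. It recovered 96 of the 100 set to change 4-fold, with 14 false calls among 203 (6.9%). Genes were simulated independently of each other, with no library set apart from its group. Those set to change were drawn from genes with a mean of at least 1 CPM. In the data 89 of the 657 genes past the threshold changed at least 2-fold. The simulated rates therefore do not describe smaller changes, changes in genes of lower level or the effect of single libraries seen here. Depth ran from 20653750 to 34370032 counts in the 16 wild-type libraries, and limits genes of low counts most.

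Genes were named by a rule. It took Faah, and, among genes past the threshold with a mean of at least 1 CPM and at least 6 of 8 libraries of each diet on their own side of the other diet's median, in each direction the 15 with the largest change, the 10 with the smallest adjusted p and the 5 of highest level. It added up to 6 members of each list described by smallest p, and list members past the threshold. Some genes that the rule took are not reported here. The members and lists were chosen with earlier results of these data known. Promoter sequences are from RefSeq (GRCm38.p6), where 6 of 7 symbols looked for were found. Gene positions are from GENCODE, where 55227 of 55487 identifiers were found. Near copies were found by shared 31-base words, at 20% or more for 15 of the 178 genes chosen for naming. Alternatives were another scaling or no factors, other filters, a replicate number or library number range term, wild-type libraries alone, each range of library numbers, sample weights, limma-trend, a minimum fold of 1.2, the other reading of doubtful cells, and leaving out each library.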

Additional observations from a re-analysis of the deposited data

Results flagged for a closer look

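Total counts and the named genes were looked at for a single library far from the rest of its group of 8, which chance gives in about 1 of 20 groups. Of 358 groups of values 29 stood out, 22 in WT NASH and 7 in WT NASH-AA, and 18 of the 22 were NASH replicate 5. In CPM, with the nearest other library in brackets, replicate 5 was highest for the hepatocyte genes Acadvl at 412 (348), Mlxipl at 376 (297), Shmt1 at 154 (117) and Tdo2 at 1050 (767). It was lowest for macrophage genes, Adgre1 at 16.2 (37.4), Csf1r at 58.7 (106), Cd14 at 3.38 (8.07), Cd63 at 8.77 (25.9), Cd9 at 21.9 (33.3) and Fabp5 at 4.32 (10.8). Among mediators it was lowest for Ccl9 at 18.2 (31.1), Cxcl16 at 13.6 (22.7) and Tgfb1 at 17.6 (30.6). The same held for Gatm at 6.47 (12), Pla2g4a at 1.48 (2.63), Plxdc1 at 0.865 (1.32), Ucp2 at 48.5 (80.1) and Vim at 37.4 (58.9).

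Other NASH libraries stood out singly. Replicate 4 was lowest for Tfrc at 8.57 (12.4), replicate 6 for Fgf21 at 2.78 (5.34) and replicate 7 for Trhde at 0.0712 (0.475), and replicate 7 was highest for Itih4 at 3160 (1640). In NASH-AA, replicate 1 was lowest for Cd163 at 2.18 (5.92) and Stab1 at 35.2 (52.2) and highest for Ndufb3 at 47.9 (41.7). Replicate 2 was lowest for Masp2 at 212 (232), replicate 4 highest for Cldn4 at 0.619 (0.17), and replicate 7 lowest for Hao2 at 0.51 (2.4), with the highest total count of its group, 34370032.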

How the results depend on the processing

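The count of genes past the threshold in wild type, 657, moved with single libraries and with the model. Leaving out 1 library gave from 26 to 2191 genes. The count moved by over 1.5 times without WT NASH replicates 2 (26), 3 (245), 4 (114), 5 (2191), 7 (113) and 8 (234), WT NASH-AA replicates 3 (275), 4 (191), 5 (64), 7 (185) and 8 (136), and FAAH S268D NASH replicate 5 (1057). It was 610 with median-of-ratios scaling, 1683 with total counts alone, 202 with no filter, 656 with a stricter filter, 370 with the library number range as a term, 1090 with the 16 wild-type libraries alone, 3759 with sample quality weights, 247 with limma-trend, 1 with a minimum fold of 1.2 and 663 with the other reading of doubtful cells. In libraries numbered 1 to 16 limma-voom passed 0 genes (1705 at an unadjusted p under 0.05) and in 17 to 32 it passed 164, with fewer samples in each. Of the 657 genes, 656 kept their sign in the former and 657 in the latter. The cause was not tested for the others. The interaction stayed at 0 in every setting run. With the replicate number as a block 17 genes passed. Deviations of same-numbered libraries from their group means correlated weakly, from -0.21 to 0.195. The best NASH-AA match was the same-numbered library for NASH replicates 1, 2 and 5, and another number for the rest. Whether the numbers pair the samples is not settled by these values. The planned edgeR fit was not run, since the table's unit was not recorded as counts. Of 8164 values of single genes under alternatives, 6269 kept direction and side of the threshold, 1644 no longer passed, 247 newly passed and 4 changed sign. Those were Faah with total counts alone (-0.099) and in libraries 17 to 32 (-0.045), Cpt1a in libraries 1 to 16 (0.05) and Ighm in libraries 17 to 32 (-0.068), none of which had passed.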

Other observations

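Rbm24, an RNA-binding protein of muscle development, was chosen after its values were seen. It had 6 to 47 counts in each of the 8 WT NASH libraries, 183 in all. In WT NASH-AA 2 of 8 libraries had a count, 2 in all, and the diets did not overlap. In FAAH S268D it had 100 counts over 6 of 8 NASH libraries and 5 counts over 2 of 8 NASH-AA libraries. The marker list of skeletal muscle summed to at most 0.95 CPM in any wild-type library. Leap2, a liver peptide that blocks the ghrelin receptor, was likewise chosen after its values were seen. It measured 13.5 to 24.2 CPM in WT NASH (median 16.8) and 24.5 to 28.8 in WT NASH-AA (median 28.0), and rose by 0.68 ± 0.15 on the log2 scale (limma-voom adjusted p = 0.0175). In FAAH S268D its log2 fold change was 0.20.

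Several genes of large rises belong to no group described in the report. Dkk4, a secreted inhibitor and target of Wnt signals, rose by 2.08 ± 0.59, from 0.0356 to 1.07 CPM in WT NASH to 0.651 to 2.80 in WT NASH-AA. Capn8, a calpain protease, rose by 1.62 ± 0.48, with 0.08 in libraries 1 to 16 and 2.78 in libraries 17 to 32. Aatk, a kinase, rose by 1.11 ± 0.28 and Chil1, a chitinase-like secreted protein, by 1.02 ± 0.30. Their log2 fold changes in FAAH S268D were 0.50 for Dkk4, -0.25 for Capn8, 0.76 for Aatk and 0.79 for Chil1.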
